A study of Caenorhabditis elegans with 20 samples.

Results

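Cytochrome P450 genes of *Caenorhabditis elegans* carry symbols that start with *cyp-*, and all genes of the deposited count table whose identifier maps to such a symbol were taken. This gave 71 genes of 22736 in the table, in 25 subfamilies named by the number and letter after *cyp-*. The WBcel235 annotation holds 74 such symbols, and *cyp-25A6*, *cyp-34A1* and *cyp-35B3* were not analysed here. P450 genes with other symbols fall outside this rule, among them *daf-9* and *dach-1*, whose values are given with the partner genes. Their levels were measured in gravid adults of 4 groups of 5 libraries: *Δdhgd-1* mutants with vitamin B12, *Δdhgd-1* mutants without supplement, wild type (WT, the N2 strain) with vitamin B12, and WT without supplement.

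The mutants carry *dhgd-1(tm6671)*, a deletion at the 5′ end of the gene for D-2-hydroxyglutarate dehydrogenase, in a strain that was backcrossed to N2. Vitamin B12 was adenosylcobalamin at 64 nM in the agar. All animals ate *Escherichia coli* OP50, both strains were kept on supplemented plates before the experiment, and embryos were left out of the collected bodies. Each library pools many whole animals, so a lower level of a transcript in a cell type and fewer cells of that type cannot be told apart. The mutant rests on 1 allele, and age is given only as the gravid adult stage.

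P450 enzymes hold a heme iron and insert 1 atom of molecular oxygen into lipids, steroids and foreign compounds, with electrons that in the endoplasmic reticulum come from P450 reductase, EMB-8 in *C. elegans*. The worm families relate to those of vertebrates: families 13, 25 and 43 resemble CYP3, families 14, 33, 34, 35 and 36 resemble CYP2, families 29, 31, 32, 37 and 42 resemble the fatty acid hydroxylases of CYP4, and *cyp-44A1* encodes a P450 of the mitochondrial type. The intestine is a main site of xenobiotic P450 expression, and several members of family 35 are known for their induction by foreign compounds. Other members act in development: CYP-31A2 and CYP-31A3 work with EMB-8 on lipids of the eggshell, and DAF-9 makes the dafachronic acid hormones.

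Total counts per library ranged from 2837943 to 15457950, with a median of 10564242.5. Levels are CPM, counts scaled to the same library total, and since Cel-seq2 reads the 3′ end of transcripts, CPM values of different genes can be compared without dividing by length. The libraries carry names of 2 series, 1 with replicates 1 and 2 and 1 with replicates 5, 6 and 7 of each group, and this split was a term of the model. Reads on *dhgd-1* were present in the mutants (200 to 459 counts per unsupplemented library, against 99 to 228 in WT), so they give no check of the genotype, whereas *acdh-1*, a gene that vitamin B12 represses, was at 112 CPM or less in the 10 supplemented libraries and at 193 CPM or more in the 10 others. Of 10 intestinal markers 9 were in the table and none of these was at 0 throughout. Summed sperm markers stayed between 0 and 10.7 CPM. The 8 markers of eggs and embryos summed to 166 to 288 CPM, but only 2 of them, *nos-2* and *elt-7*, passed the low-count filter. Whether any of this sum came from embryos, which were excluded, was not tested. Replicate 1 of the supplemented mutants had the highest level of all 20 libraries for 7 of the 34 *cyp* genes tested, and replicate 7 of supplemented WT for 11, so several results are also given without both of them. The series of library names alone hold 2 or 3 libraries a group, and values within a series are given as fold changes: of the calls below, only those of *cyp-35D1* between the unsupplemented strains (adjusted p = 0.0179) and of *cyp-37B1* with vitamin B12 in WT (adjusted p = 0.00895) also held within replicates 5, 6 and 7, and none held within replicates 1 and 2.

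The P450 genes as a whole took few reads. Together they had 47654 counts, between 0.0214% and 0.0408% of a library's reads, and 42 to 60 members had a count in any given library. Only *cyp-33C1* had no count anywhere, and 17 members, *cyp-33C1* included, had fewer than 20 counts over all 20 libraries. Mean levels passed 1 CPM for 31 members and 10 CPM for 6, and the 10 highest members held 78.8% of the family's CPM. The low-count filter kept 34 members for the tests and left out 37, so counts of called members speak only of the expressed part of the family. A few of the 34, such as *cyp-37B1*, *cyp-35B1* and *cyp-35D1*, owe their place to the groups where they are high.

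**Figure D1:**
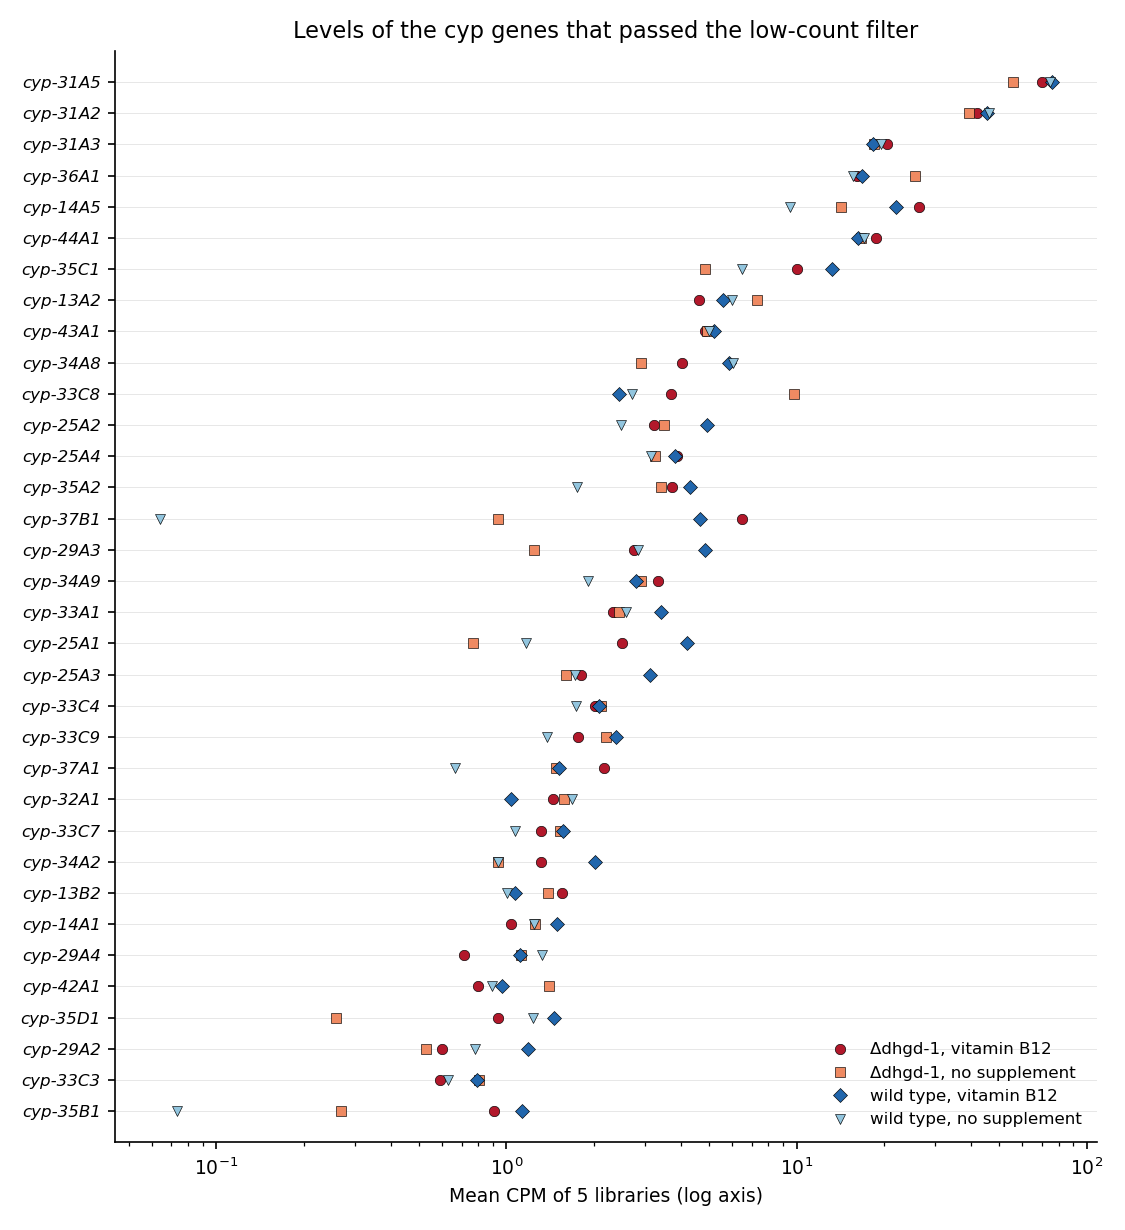
Mean CPM of 5 libraries (log axis) in each of the 4 groups for the 34 *cyp* genes that passed the low-count filter, ordered by mean level over all libraries. The group means of most genes lie close together, and the widest gap is that of *cyp-37B1*, at 6.51 CPM in supplemented mutants and 0.0639 CPM in unsupplemented wild type.

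The eggshell subfamily 31A led the family. Its 3 genes, all on chromosome IV, held 49.5% of all *cyp* counts, with mean levels of 69.1 CPM for *cyp-31A5*, 43.2 CPM for *cyp-31A2* and 19.2 CPM for *cyp-31A3*. The summed 31A level was 108 to 156 CPM in supplemented and 97.3 to 128 CPM in unsupplemented mutants, and 92.2 to 206 CPM in supplemented and 120 to 162 CPM in unsupplemented WT. All 4 ranges overlap. The sequences of the 31A genes are close, and how the authors' counting divided reads among near-identical copies is not given in the sources used here, so the split among the 3 genes is uncertain. *cyp-31A5* also overlaps *Y62E10A.19* on the opposite strand, and whether strand was used in counting is not stated.

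Next came 3 genes at similar levels from unrelated subfamilies. *cyp-36A1* (chromosome I, 8341682 to 8346023 in WBcel235), known from the HIF-1 oxygen response where it acts with *nhr-46*, had a mean of 18.6 CPM. *cyp-14A5* (chromosome V, 5421018 to 5423282) had 18.1 CPM and *cyp-44A1* (chromosome II, 5504044 to 5505975) had 17.2 CPM. The 10 highest were completed by *cyp-35C1* with 8.64 CPM, *cyp-13A2* with 5.87 CPM, *cyp-43A1* with 4.98 CPM and *cyp-34A8* with 4.70 CPM. *cyp-36A1* overlaps *figo-1* and *cyp-43A1* overlaps *C41G11.1*, each on the opposite strand, and *cyp-44A1* overlaps *npp-24* on its own strand.

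In most of the larger subfamilies few members reached the filter. Of the 11 genes of 13A only *cyp-13A2* passed the filter, and of the 5 genes of 35A only *cyp-35A2*, a gene known for its part in fat storage and for induction by xenobiotics. In 33C, 10 of 11 members had counts, 5 were tested, and *cyp-33C8* was the highest with 4.65 CPM. In 34A, 3 members were tested. In 25A all 4 were, with means between 2.06 and 3.53 CPM. Members of 23A, 32B, 33B, 33D and 33E, the last with the eicosanoid epoxygenase gene *cyp-33E2*, did not reach the filter.

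Members of a genomic cluster differed widely in level. The family lies mostly on chromosome V (39 members), with 12 on II, 7 on X, 6 each on III and IV and 1 on I. With gaps under 10000 bases between neighbours, 41 members fell into 12 clusters, the largest with 8 genes of 13A on chromosome II (9779181 to 9807569), of which only *cyp-13A2* was tested. In the next, 6 genes of 34A on chromosome V (3955701 to 3972991), *cyp-34A8* averaged 4.70 CPM and *cyp-34A9*, known as the DAF-16 target *dod-16*, 2.74 CPM. Their neighbours *cyp-34A7* and *cyp-34A10* averaged 0.148 and 0.0511 CPM, although the gaps between these 4 genes are 982, 311 and 162 bases. *cyp-35B1*, known as the DAF-16 target *dod-13*, lies between *cyp-35A5* and *cyp-35B2* in a cluster of 3 of which it alone was tested.

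The summed level of all 71 genes had overlapping ranges in the 4 groups. It was 248 to 339 CPM in supplemented and 228 to 279 CPM in unsupplemented mutants, and 215 to 408 CPM in supplemented and 214 to 287 CPM in unsupplemented WT. The highest values of the supplemented groups belong to replicate 1 of the mutants and replicate 7 of WT. Without subfamily 31A the medians were 133 CPM in supplemented and 137 CPM in unsupplemented mutants, and 147 CPM in supplemented and 97.7 CPM in unsupplemented WT, again with overlapping ranges. In same-numbered pairs the sum of all 71 genes was higher with vitamin B12 in 5 of 5 pairs of mutants and 4 of 5 of WT, and the sum without 31A in 3 of 5 pairs of mutants and 5 of 5 of WT, which is a description without a test.

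**Figure D2:**
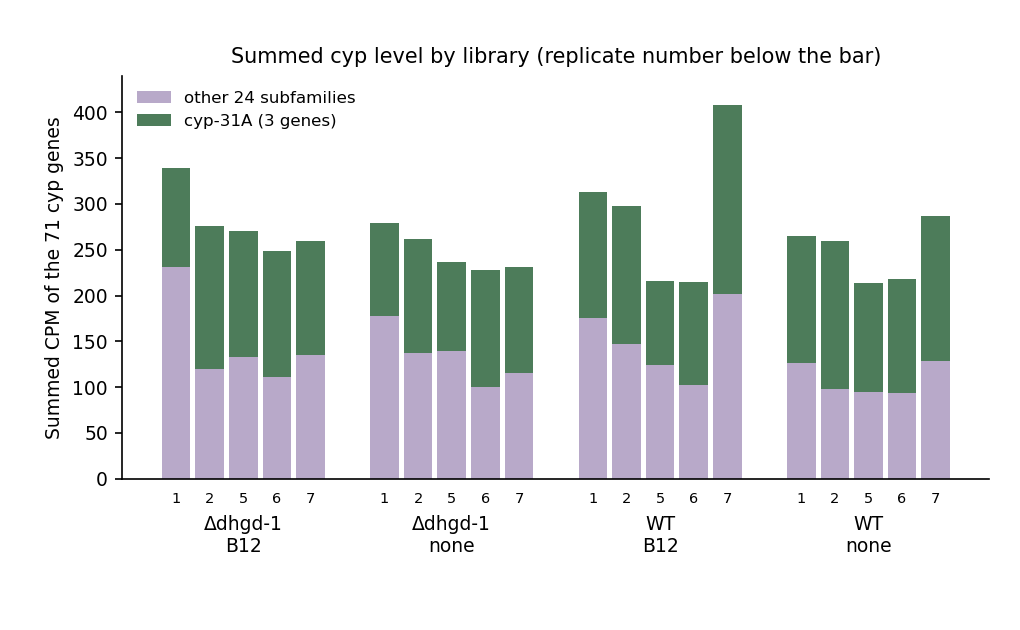
Summed CPM of the 71 *cyp* genes in each library, stacked as the 3 genes of subfamily 31A and the other 24 subfamilies, with the replicate number below each bar. Sums run from 214 to 408 CPM, and the tallest bar of each supplemented group is replicate 1 in mutants and replicate 7 in wild type.

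The first comparison, *Δdhgd-1* mutants against WT without supplement, asks how P450 genes differ when *dhgd-1* is lost. In the mutants *cyp-33C8* rose to more than 3 times its WT level, while *cyp-35D1* and *cyp-34A8* fell. *cyp-35D1*, whose enzyme oxidizes the anthelmintic thiabendazole, fell to 0.258 ± 0.0817 CPM in mutants, against 1.23 ± 0.627 CPM in WT (SD, n = 5 each). So 1 member of 34 was called higher, where 1.82% of the 11270 genes tested were called higher, and 2 were called lower, where 0.994% of all genes were. A call needed an adjusted p under 0.05 (edgeR quasi-likelihood test, Benjamini-Hochberg over all genes tested) and a fold change over 1.5.

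*cyp-33C8* (chromosome V, 3800782 to 3803542), a CYP2-like gene, had 10.2, 14.5, 10.9, 5.28 and 8.0 CPM in mutants (replicates 1, 2, 5, 6 and 7), against 2.90, 3.84, 1.24, 2.60 and 3.01 CPM in WT. Every mutant library lay above every WT library. This gave a log2 fold change of 1.71 ± 0.34 (SE, the standard error of the fit, adjusted p = 0.00467), with 1.81 within replicates 1 and 2 and 1.71 within replicates 5, 6 and 7. Its 4 tested relatives *cyp-33C3*, *cyp-33C4*, *cyp-33C7* and *cyp-33C9* had log2 fold changes between 0.13 and 0.43, and none was called.

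For *cyp-35D1* (chromosome V, 16069238 to 16071318) the levels were 0.139, 0.230, 0.361, 0.273 and 0.288 CPM in mutants, against 0.967, 0.274, 1.43, 1.83 and 1.66 CPM in WT. These are 1 to 5 counts in each mutant library and 1 to 21 in each WT library. Only replicate 2 of WT reached into the mutant range. The fitted log2 fold change was -2.37 ± 0.40 (SE, adjusted p = 0.000893), and it was -2.48 within replicates 5, 6 and 7, while the gene was under the filter within replicates 1 and 2. With only the compared libraries *cyp-35D1* was also under the filter, so this test depends on libraries outside the comparison. *cyp-34A8* (chromosome V, 3964797 to 3967823) had 5.01, 2.76, 1.44, 3.28 and 2.09 CPM in mutants, against 6.44, 7.14, 6.11, 3.82 and 6.8 CPM in WT, with overlap only between the highest mutant and the lowest WT library. It was lower in the mutant in 5 of 5 same-numbered pairs, with a log2 fold change of -1.22 ± 0.27 (SE, adjusted p = 0.0110). Within replicates 1 and 2 the value was -0.82 and within replicates 5, 6 and 7 it was -1.41. Without the term for the series of library names the call was lost (adjusted p = 0.0535). 2 annotated genes, *B0213.18* and *B0213.25*, overlap *cyp-34A8*.

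Neither tested relative of *cyp-34A8* was called: *cyp-34A9*, 311 bases away, had a log2 fold change of 0.23 and *cyp-34A2* one of -0.17. In family 35 the values also ran both ways, with -0.51 for *cyp-35C1*, 0.60 for *cyp-35A2* and 0.97 for *cyp-35B1*, none of them called. Over all 34 members 16 had a positive fold change and the median was -0.14, beside a median of -0.03 over all genes tested, of which 46.8% were positive. Scaling by library totals alone moved the median of all genes to 0.10 and that of the members to -0.01, with 16 members positive, and the same 3 members kept their calls, with *cyp-37B1* added.

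*cyp-37B1* (chromosome V, 16278116 to 16280616), of the CYP4-like subfamily 37B, stood just outside the call. Its levels were 2.50, 0.689, 0.289, 0.273 and 0.937 CPM in mutants, against 0.161, 0, 0, 0 and 0.158 CPM in WT. All 5 mutant libraries lay above all WT libraries, but WT rests on 3 counts in all against 41 in the mutants, a ratio of 10.7 per read (exact 95% interval 3.43 to 54.3, counting error only). The log2 fold change of 3.10 ± 0.87 (SE) had an adjusted p of 0.0538. With only the compared libraries the gene was under the filter, so its test here depends on its levels in the supplemented groups. In the model that blocks on replicate number, without the series term, it was called (log2 fold change 3.19, edgeR adjusted p = 0.00851). Without replicate 7 of unsupplemented WT, which holds 2 of the 3 WT counts, it was 4.19 (edgeR adjusted p = 0.0358). Over the 20 edgeR fits that left out 1 library, adjusted p ran from 0.0218 to 0.157, and 6 of them called the gene. Over 6 other settings of scaling, filter, terms or method (edgeR or DESeq2), adjusted p ran from 0.000447 to 0.260, with 4 calls. *cyp-37B1* overlaps *F28G4.2* on the opposite strand.

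A further 3 members had an unadjusted edgeR p under 0.05 without a call. The log2 fold change was -1.42 (adjusted p = 0.0959) for *cyp-29A3*, whose enzyme makes epoxides of polyunsaturated fatty acids. It was -0.56 (adjusted p = 0.127) for *cyp-31A5* and 0.58 (adjusted p = 0.179) for *cyp-36A1*. *cyp-31A5* had 44.1, 56.7, 52.5, 64.4 and 60.5 CPM in mutants, against 70.7, 81.8, 64.9, 72.4 and 84.2 CPM in WT, so the groups did not overlap although the test gave no call. *cyp-36A1* had 14.9, 16.3, 43.2, 29.8 and 24 CPM in mutants, against 9.34, 9.33, 15.9, 18.8 and 25.1 CPM in WT. In both strains replicates 1 and 2 were the lowest for this gene, which is the split between the series of library names.

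Of the hypodermal markers *grd-13* was called lower in mutants (1.08 ± 0.363 CPM, against 6.49 ± 3.95 CPM in WT, SD, n = 5 each), while the summed level of the 7 hypodermal markers was 387 to 472 CPM in mutants and 424 to 815 CPM in WT. The median log2 fold change of the 5 tested was -0.39. The 8 germline and oocyte markers, relevant to the eggshell genes of 31A, had a median log2 fold change of -0.31 with none called, and summed to 3441 to 7120 CPM in mutants and 4015 to 8313 CPM in WT. The 3 genes of 31A had values from -0.56 to -0.22. The 9 intestinal markers summed to 1601 to 2563 CPM in mutants and 1494 to 2503 CPM in WT, with none called. The part of these markers in the *cyp* values was not tested.

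**Figure D3:**
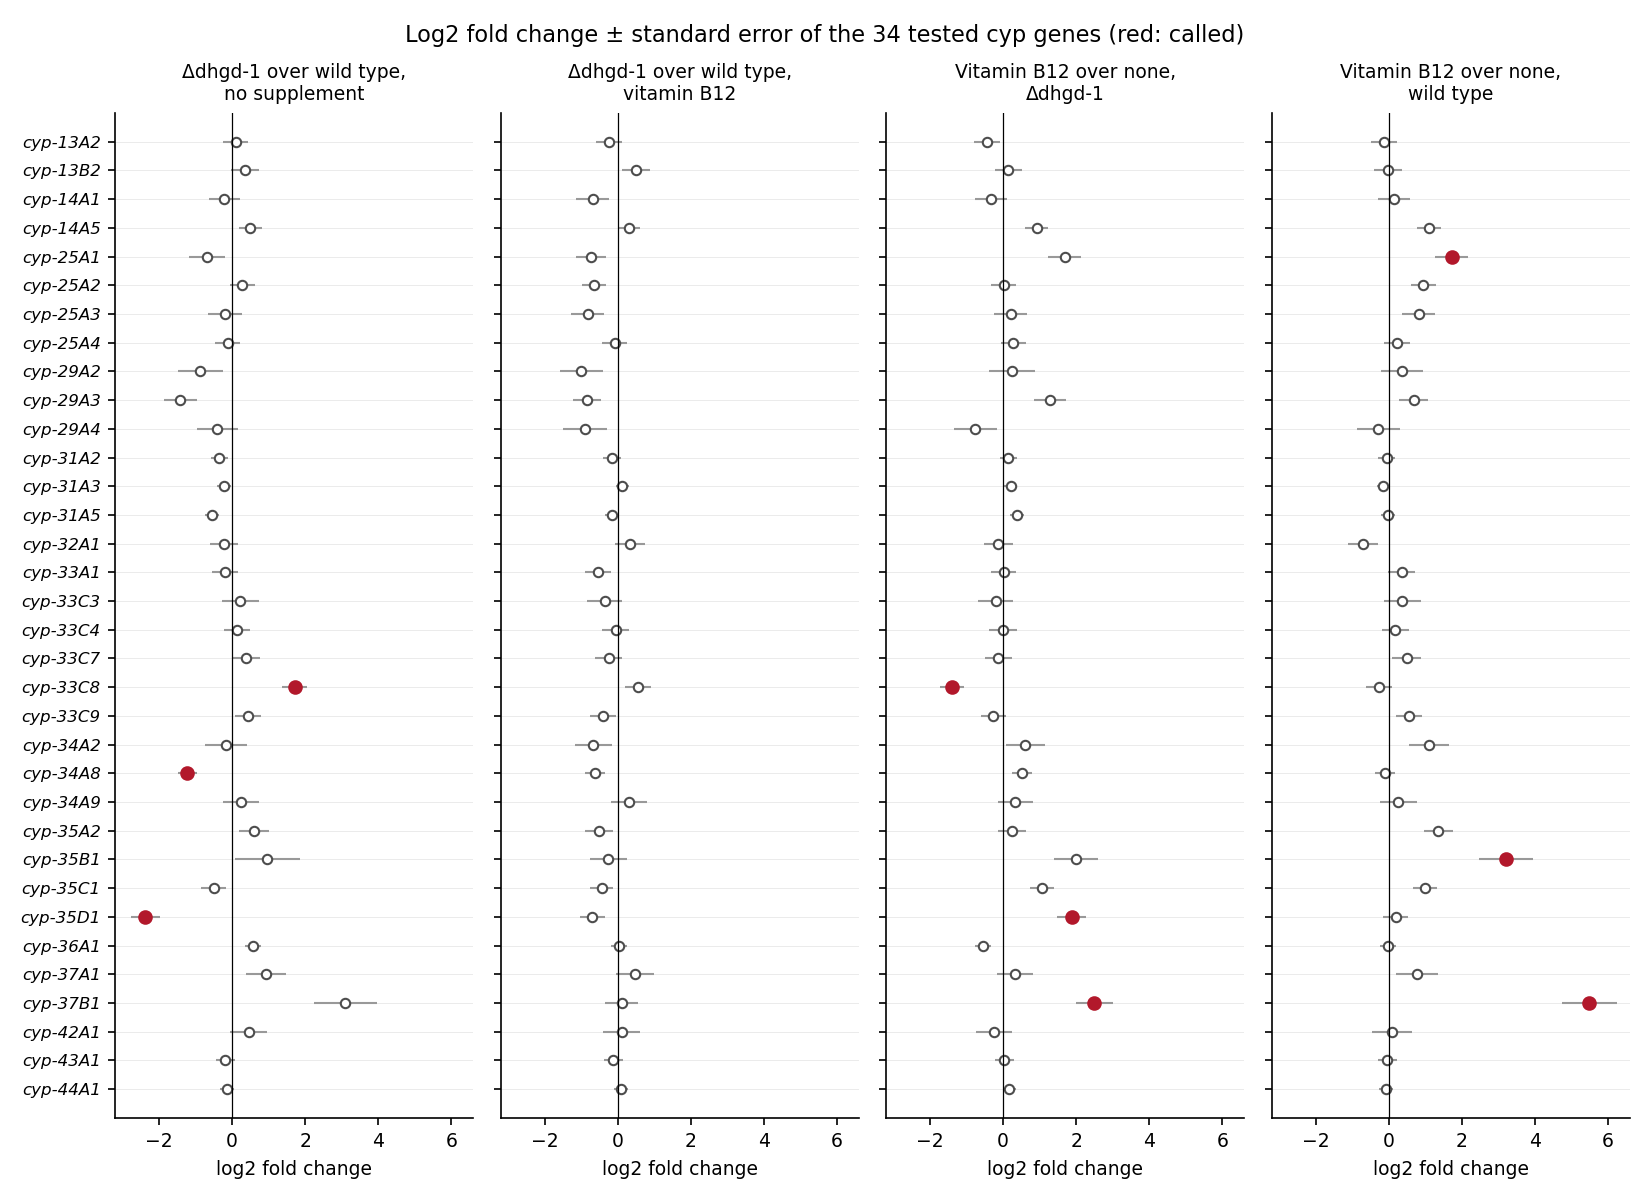
Log2 fold change with standard error for the 34 tested *cyp* genes in the 4 comparisons, ordered by family number, with called genes as filled red points. Calls are 0 between the supplemented strains and 3 in each other comparison, and most other members lie within 1 log2 unit of 0.

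With vitamin B12 in both strains, the same comparison of mutants and WT gave no called P450 gene. The counts were 0 members called higher, beside 0.346% of all genes, and 0 called lower, beside 0.204%. DESeq2 also called 0, and 2 members had an unadjusted p under 0.05 in edgeR, *cyp-34A8* and *cyp-29A3*. *cyp-34A8* had 5.70, 4.43, 3.06, 2.59 and 4.28 CPM in mutants, against 7.75, 4.71, 5.69, 3.94 and 7.04 CPM in WT. The mutant value was the lower one in 5 of 5 same-numbered pairs, and the log2 fold change was -0.62 ± 0.27 (SE, edgeR adjusted p = 0.677). *cyp-29A3* had 1.46, 0.782, 2.21, 3.62 and 5.63 CPM in mutants, against 2.11, 2.64, 5.42, 6.24 and 7.70 CPM in WT, a log2 fold change of -0.83 ± 0.39 (SE, adjusted p = 0.726). Both genes were thus lower in the mutant in all same-numbered pairs, with overlapping groups.

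The other genes called without supplement had smaller fold changes here. *cyp-33C8* averaged 3.68 ± 1.92 CPM in mutants and 2.44 ± 1.17 CPM in WT, a log2 fold change of 0.56 ± 0.35 (SE). *cyp-35D1* averaged 0.932 ± 0.314 CPM in mutants and 1.45 ± 0.643 CPM in WT (SD, n = 5 each), a log2 fold change of -0.70 ± 0.34 (SE) with an edgeR adjusted p of 0.737. For *cyp-37B1* the log2 fold change was 0.11 ± 0.45 (SE). Members ranged from -0.99 to 0.56 with a median of -0.24, and 11 of 34 were positive, beside a median of 0.01 and 50.7% positive over all genes. The strain comparisons with and without supplement share no library, and their fold changes had the same sign for 23 of 34 members, beside 63.2% of all genes.

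Vitamin B12 against no supplement within *Δdhgd-1* mutants asks how far the supplement moves these genes in the mutant. Here *cyp-37B1* and *cyp-35D1* rose and *cyp-33C8* fell, so *cyp-33C8* and *cyp-35D1* each moved opposite to their difference between the unsupplemented strains. The unsupplemented mutants are shared by both comparisons, which ties such opposite signs together. The calls were 2 of 34 members higher, beside 0.843% of all genes, and 1 lower, beside 1.02%.

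*cyp-33C8* had 4.24, 5.74, 5.02, 1.16 and 2.25 CPM in mutants with vitamin B12, against the 5.28 to 14.5 CPM of unsupplemented mutants listed above. The groups overlapped in a single pair of libraries, and the supplemented library was lower in 5 of 5 same-numbered pairs. The log2 fold change was -1.41 ± 0.33 (SE, adjusted p = 0.0185), -1.32 within replicates 1 and 2 and -1.5 within replicates 5, 6 and 7. Leaving out replicate 5 of the unsupplemented mutants, or replicate 1, 6 or 7 of the supplemented mutants, ended the call, with adjusted p up to 0.0824, whereas it held without replicate 1 of supplemented mutants and replicate 7 of supplemented WT together (log2 fold change -1.37, adjusted p = 0.0376).

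*cyp-35D1* had 0.530, 0.782, 0.851, 1.29 and 1.20 CPM in supplemented mutants, above all 5 unsupplemented mutant libraries (0.139 to 0.361 CPM). Behind these stand 53 counts with and 14 without the supplement. Its log2 fold change was 1.87 ± 0.40 (SE, adjusted p = 0.0101), and 1.89 within replicates 5, 6 and 7. Leaving out replicate 6 of the supplemented mutants ended the call (adjusted p = 0.0629), as did testing without the low-count filter (adjusted p = 0.0604). With only the compared libraries the gene was under the filter and was not tested.

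*cyp-37B1* had 21.9, 4.17, 3.57, 0.970 and 1.95 CPM in supplemented mutants, against 2.50, 0.689, 0.289, 0.273 and 0.937 CPM in unsupplemented ones. Replicate 1 held the highest value of each group, the groups overlapped, and the supplemented library was the higher one in 5 of 5 same-numbered pairs. The log2 fold change was 2.50 ± 0.50 (SE, adjusted p = 0.00525), with 2.93 within replicates 1 and 2 and 2.09 within replicates 5, 6 and 7. Without replicate 1 of the supplemented mutants and replicate 7 of supplemented WT it was 1.86 (adjusted p = 0.0376).

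Without the term for the series of library names none of these 3 calls held (adjusted p = 0.131 for *cyp-33C8*, 0.0964 for *cyp-35D1* and 0.0767 for *cyp-37B1*), with the same directions. In the model that blocks on replicate number instead, 6 members were called, 5 higher, beside 1.34% of all genes under that model, and 1 lower, beside 1.96%. The genes added were *cyp-14A5*, *cyp-25A1* and *cyp-35C1*. *cyp-25A1* (chromosome III, 3832591 to 3834586), a CYP3-like gene, had 1.86, 1.83, 2.13, 2.13 and 4.58 CPM in supplemented mutants, against 0.974, 0, 0.505, 1.27 and 1.08 CPM in unsupplemented ones. The groups did not overlap, and the log2 fold change was 1.69 ± 0.46 (SE, edgeR adjusted p = 0.0575, or 0.00752 with the block). It was called without replicate 1 of supplemented mutants and replicate 7 of supplemented WT together (1.66, adjusted p = 0.0449). *cyp-14A5* had 48.1, 20.6, 21, 19.7 and 23.1 CPM with the supplement, against 22.3, 12.9, 13, 8.37 and 14.6 CPM without, a log2 fold change of 0.92 ± 0.31 (SE, edgeR adjusted p = 0.176, or 0.0375 with the block, and 0.81 with an adjusted p of 0.237 without both libraries). *cyp-35C1* had 10.7, 4.17, 12, 9.77 and 13.4 CPM with the supplement, against 8.07, 2.99, 3.90, 4.09 and 5.12 CPM without, a log2 fold change of 1.07 ± 0.33 (SE, edgeR adjusted p = 0.113, or 0.0294 with the block). In each of the 5 same-numbered pairs all 3 genes had the higher value with vitamin B12. Each was also fitted under 7 other settings of scaling, filter, terms, method or libraries, the block among them. Adjusted p (edgeR or DESeq2) reached 0.278 for *cyp-25A1*, 0.637 for *cyp-14A5* and 0.281 for *cyp-35C1*. These genes were called in 3, 2 and 3 of the 7 settings.

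In mutants 23 of 34 members had a positive fold change with vitamin B12 and their median was 0.19, beside 51.4% positive and a median of 0.01 over all genes. Under library totals alone 20 members were positive and the median was 0.13. Of the 9 intestinal markers tested only the metallothionein gene *mtl-2* was called, higher with vitamin B12 (219 ± 112 CPM, against 90.5 ± 33.2 CPM, SD, n = 5 each). The median log2 fold change of the 9 was 0.10. With *mtl-2* included they summed to 1966 to 3765 CPM with and 1601 to 2563 CPM without the supplement. Of the 5 hypodermal markers tested only *grd-13* was called, higher too (8.22 ± 5.57 CPM, against 1.08 ± 0.363 CPM). The 7 hypodermal markers summed to 359 to 604 CPM with and 387 to 472 CPM without the supplement. The part of these markers in the *cyp* values was not tested.

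In WT, vitamin B12 against no supplement gave 3 genes higher and none lower. *cyp-37B1* rose the most of the tested members, *cyp-35B1* rose at low counts, and *cyp-25A1* was just past the threshold. The 3 of 34 members called higher stand beside 0.772% of all genes, and the 0 called lower beside 0.674%.

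*cyp-37B1* had 7.75, 7.34, 3.07, 1.19 and 3.94 CPM in supplemented WT, against 0.161, 0, 0, 0 and 0.158 CPM in unsupplemented WT. The supplemented libraries held 150 counts and the unsupplemented ones 3, a ratio of 48.5 per read (exact 95% interval 16.3 to 238). The groups did not overlap. The fitted log2 fold change, which at so few counts depends on the fit, was 5.49 ± 0.75 (SE, adjusted p = 4.82e-05), with 5.96 within replicates 1 and 2 and 5.11 within replicates 5, 6 and 7. Without replicate 7 of unsupplemented WT it was 6.59 (adjusted p = 7.90e-05). With the supplement, replicates 1 and 2 held the highest levels in WT, as they did in mutants.

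*cyp-35B1* (chromosome V, 3939032 to 3941237) had 1.76, 1.13, 0.993, 0.917 and 0.845 CPM in supplemented WT, against 0, 0, 0.286, 0 and 0.0791 CPM in unsupplemented WT. This is 41 counts against 4, a ratio of 9.93 per read (exact 95% interval 3.60 to 38.2), without overlap. Its log2 fold change was 3.21 ± 0.73 (SE, adjusted p = 0.0195) and 2.66 within replicates 5, 6 and 7, and the gene was under the filter within replicates 1 and 2. With only the compared libraries it was under the filter too, so this test depends on libraries outside the comparison. Leaving out replicate 1 or 7 of unsupplemented WT ended the call, with adjusted p up to 0.0691, and leaving out replicate 5 of that group, which holds 3 of its 4 counts, moved the log2 fold change to 4.56 (adjusted p = 0.00708). In mutants the same gene had 2.12, 0, 0.681, 0.518 and 1.20 CPM with and 0.417, 0.459, 0.217, 0.182 and 0.0721 CPM without vitamin B12, a log2 fold change of 1.98 ± 0.60 (SE, adjusted p = 0.112). A noncoding gene, *K07C6.16*, overlaps *cyp-35B1*.

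*cyp-25A1* had 2.11, 2.45, 2.53, 3.21 and 10.7 CPM in supplemented WT, against 0.805, 0.549, 1.05, 1.07 and 2.37 CPM in unsupplemented WT, where replicate 7 was the highest of each group. The fit gave a log2 fold change of 1.72 ± 0.44 (SE, adjusted p = 0.0482), 1.71 within replicates 1 and 2 and 1.74 within replicates 5, 6 and 7. The call was lost in 12 of 20 fits that left out 1 library (adjusted p = 0.0231 to 0.281 over the 20), with RLE factors (0.0510) and with library totals alone (0.0567). It was also lost without the series term and with only the compared libraries (edgeR adjusted p up to 0.225). Without replicate 1 of supplemented mutants and replicate 7 of supplemented WT the log2 fold change was 1.18 (adjusted p = 0.302). Its 3 relatives in subfamily 25A had log2 fold changes of 0.95 for *cyp-25A2*, 0.82 for *cyp-25A3* and 0.23 for *cyp-25A4*, none called. *cyp-25A2* lies 635 bases from *cyp-25A1* and had 4.93, 3.77, 3.97, 3.76 and 8.17 CPM with and 2.09, 2.74, 1.05, 2.60 and 3.96 CPM without vitamin B12.

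With the replicate block 5 members were called higher in WT, beside 1.42% of all genes under that model, and *cyp-14A5* and *cyp-35A2* were added to the 3 above. *cyp-14A5* had 33.1, 34.1, 8.13, 9.36 and 25.6 CPM with the supplement, against 18.8, 7.68, 4.2, 6.87 and 9.97 CPM without, a log2 fold change of 1.10 ± 0.32 (SE, edgeR adjusted p = 0.0964, or 0.0123 with the block, and 0.91 with an adjusted p of 0.256 without replicate 1 of supplemented mutants and replicate 7 of supplemented WT). *cyp-35A2* had 5.29, 4.89, 3.52, 2.11 and 5.63 CPM with and 3.06, 2.20, 1.53, 0.458 and 1.5 CPM without, a log2 fold change of 1.36 ± 0.41 (SE, edgeR adjusted p = 0.122, or 0.0123 with the block). Each of the 5 same-numbered pairs had the higher value with vitamin B12 for both genes, and in both the groups overlapped. Under the same 7 settings as in mutants, adjusted p (edgeR or DESeq2) reached 0.422 for *cyp-14A5* and 0.890 for *cyp-35A2*. They were called in 3 and 2 of the 7. Members had a median log2 fold change of 0.25 with 22 of 34 positive, beside -0.03 and 45.7% over all genes.

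Among members under the filter, *cyp-13A5* was called by DESeq2, which tested it, and is named here after its values were seen. It had 0.705, 0.188, 0.0903, 0 and 0 CPM in supplemented WT, against 2.74, 0.823, 0.382, 0.763 and 0.791 CPM in unsupplemented WT, a DESeq2 log2 fold change of -3.43 (adjusted p = 0.0166). In mutants its levels spanned 0.170 to 4.77 CPM with and 0.182 to 8.21 CPM without vitamin B12, and replicates 1 and 2 held the 2 highest values of each of these groups. The intestinal markers of WT summed to 1237 to 2851 CPM with and 1494 to 2503 CPM without the supplement, with none called.

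**Figure D4:**
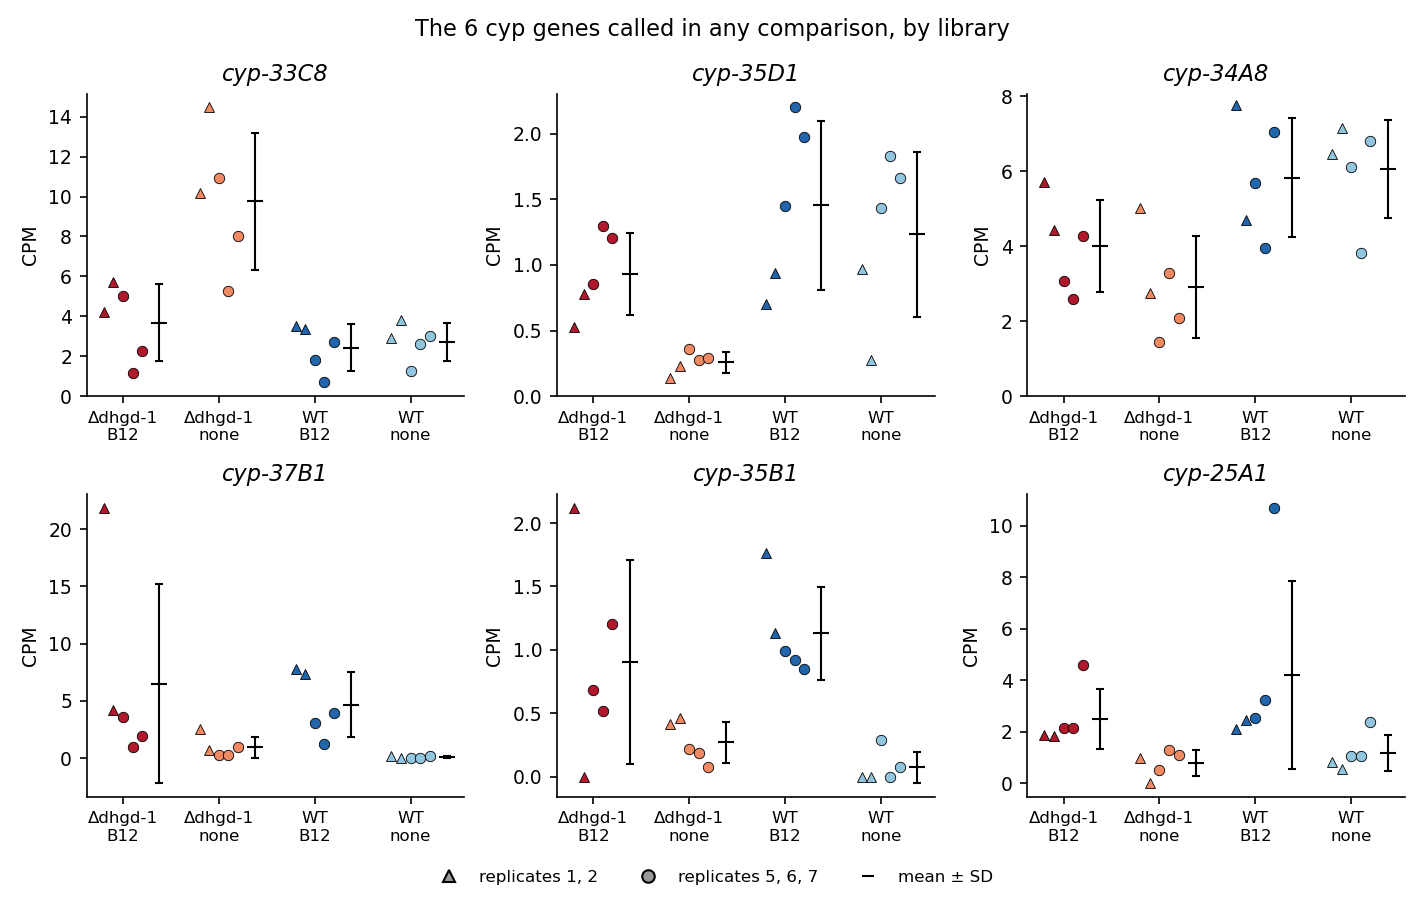
CPM by library for the 6 *cyp* genes called in any comparison, with triangles for replicates 1 and 2, circles for replicates 5, 6 and 7, and the mean with its SD beside each group. *cyp-33C8* stands high and *cyp-35D1* low in unsupplemented mutants (means of 9.76 and 0.258 CPM), while *cyp-37B1*, *cyp-35B1* and *cyp-25A1* have higher means with vitamin B12 in both strains.

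Whether vitamin B12 acted differently in the strains was tested as an interaction. No member passed an adjusted p under 0.05, for which no fold minimum was set, beside 0.0444% of all genes called in either direction, and DESeq2 also called 0. With an unadjusted p under 0.05 there were 3 members. The vitamin B12 effect in mutants minus that in WT was 1.68 ± 0.52 on the log2 scale for *cyp-35D1* (SE, edgeR adjusted p = 0.667). It was -1.15 ± 0.49 for *cyp-33C8* (SE, edgeR adjusted p = 0.999) and -3.0 ± 0.99 for *cyp-37B1* (SE, edgeR adjusted p = 0.721). The last rests on the 3 counts of unsupplemented WT.

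The calls of *cyp-33C8* and *cyp-35D1* in mutants alone are thus not shown to differ from WT, where *cyp-33C8* had a vitamin B12 log2 fold change of -0.27 ± 0.37 (SE) and *cyp-35D1* one of 0.19 ± 0.34 (SE). For *cyp-25A1* the effects were nearly equal, with a difference of -0.04 ± 0.78 (SE), and *cyp-14A5* and *cyp-35C1* also had similar values in both strains. The vitamin B12 comparisons of the strains share no library. Their fold changes had the same sign for 21 of 34 members, 16 positive and 5 negative in both, beside 57.6% of all genes.

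**Figure D5:**
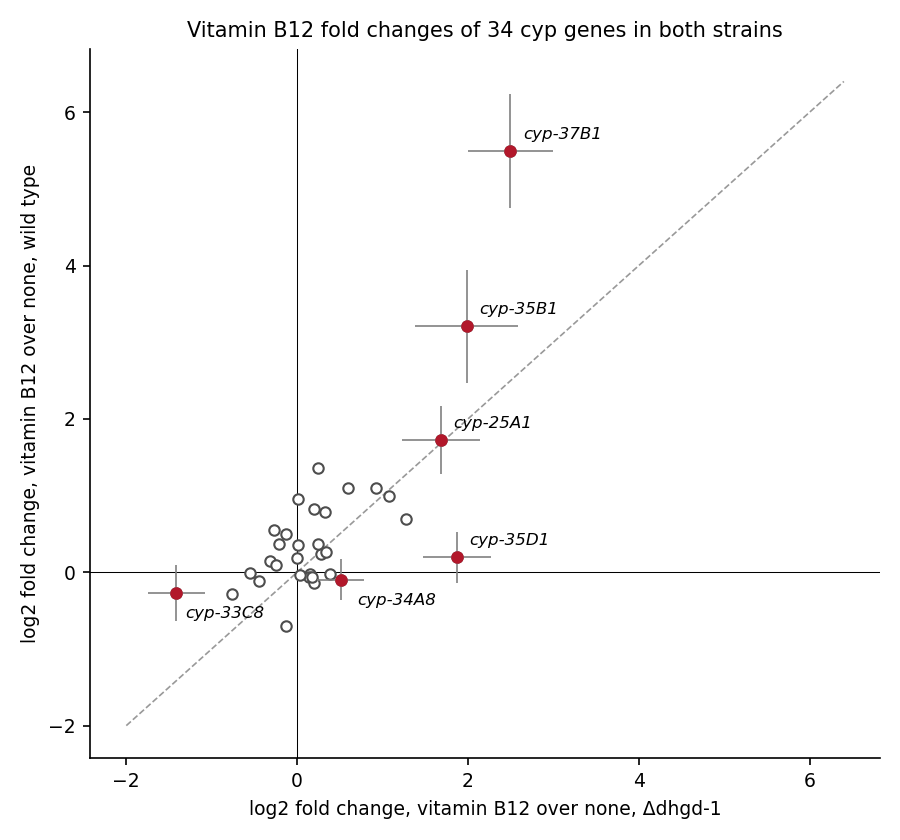
Log2 fold change with vitamin B12 over no supplement in *Δdhgd-1* mutants (horizontal axis) and in wild type (vertical axis) for the 34 tested *cyp* genes, with the 6 called genes in red with standard errors and a dashed line of equal change. *cyp-37B1* has values of 2.50 in mutants and 5.49 in wild type, *cyp-35D1* has 1.87 and 0.19, and *cyp-33C8* has -1.41 and -0.27.

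No subfamily had more than 1 called member in any comparison. Only 14A, 25A, 29A, 31A, 33C and 34A had more than 1 tested member, so in the others this could not have come out otherwise. In 29A the medians between the strains were -0.90 with and -0.87 without vitamin B12, each with 0 of 3 members positive, and in 31A 0 of 3 were positive between the unsupplemented strains (median -0.35). In 34A all 3 were positive with vitamin B12 in mutants (median 0.51). In 33C the median between unsupplemented strains was 0.38 with all 5 tested members positive, but only *cyp-33C8* was called, and with vitamin B12 in mutants the median was -0.21 with 0 of 5 positive. In 25A all 4 members had positive fold changes with vitamin B12 in both strains, from 0.01 to 1.69 in mutants and from 0.23 to 1.72 in WT. The single tested genes of 35A, 35B, 35C and 35D also had positive values in both strains, from 0.24 to 1.98 in mutants and from 0.19 to 3.21 in WT. The highest genes, those of 31A, and *cyp-43A1* and *cyp-44A1* had fold changes between -0.56 and 0.38 in the 4 comparisons, with no call. The remaining named genes had no call either, with log2 fold changes from -0.44 to 0.10 for *cyp-13A2*, -0.02 to 0.51 for *cyp-13B2*, -0.70 to 0.34 for *cyp-32A1* and -0.54 to 0.35 for *cyp-33A1*. For the CYP4-like genes *cyp-37A1* and *cyp-42A1* they ran from 0.33 to 0.93 and from -0.25 to 0.45.

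Of 11 listed genes for electron transfer and for eicosanoid and steroid metabolism, 10 were matched and 9 tested, with 0 called in any of the 4 comparisons, where 0.204% to 1.82% of all genes were called in a given direction. *emb-8*, the reductase, was on its own at a level near the sum of all *cyp* genes, with 297 ± 72.6 CPM in supplemented mutants, 326 ± 15.9 CPM in unsupplemented mutants, 290 ± 96.1 CPM in supplemented WT and 327 ± 99.8 CPM in unsupplemented WT (SD, n = 5 each). Its log2 fold changes lay between -0.21 and -0.03. Of 10 genes for heme supply, which matter since the worm takes up its heme from food, 7 were tested and 0 called.

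The P450 genes outside the *cyp-* symbols gave different results. *daf-9* averaged 1.57 ± 1.13 CPM in unsupplemented mutants and 2.42 ± 1.21 CPM in WT, a log2 fold change of -0.86 ± 0.38 (SE, edgeR adjusted p = 0.282), and was the lower one in the mutant in 5 of 5 same-numbered pairs. *dach-1*, called *cyp-34A4* in older annotation and named here after its values were seen, had 23.1, 11, 9.32, 7.37 and 4.47 CPM in unsupplemented mutants, against 2.74 to 3.84 CPM in WT. The groups did not overlap, and the log2 fold change was 1.43 ± 0.34 (SE, adjusted p = 0.0201). With vitamin B12 it averaged 7.11 ± 4.46 CPM in mutants and 5.28 ± 1.14 CPM in WT, with a log2 fold change of 0.25 and no call.

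Of 23 transcription factors known from xenobiotic, lipid or vitamin B12 responses, 22 were tested and 3 were called. In single comparisons this was 1 of 22 higher between the unsupplemented strains, beside 1.82% of all genes, 1 of 22 lower with vitamin B12 in mutants, beside 1.02%, and 2 of 22 lower with vitamin B12 in WT, beside 0.674%. *pqm-1* rose in unsupplemented mutants to 26.5 ± 14.5 CPM, against 6.53 ± 1.54 CPM in WT (SD, n = 5 each), a log2 fold change of 1.86 ± 0.33 (SE, edgeR adjusted p = 0.00174). *nhr-114* fell with vitamin B12 in both strains, to 2.58 ± 1.64 CPM in supplemented mutants, against 18.7 ± 12.2 CPM in unsupplemented mutants, and to 3.27 ± 2.00 CPM in supplemented WT, against 9.75 ± 4.31 CPM in unsupplemented WT. The log2 fold changes were -2.68 ± 0.34 in mutants (SE, edgeR adjusted p = 2.8e-05) and -1.62 ± 0.34 in WT (SE, edgeR adjusted p = 0.00919). *nhr-68*, a factor of the vitamin B12 mechanism, was called lower with vitamin B12 in WT (log2 fold change -1.10 ± 0.28, SE, edgeR adjusted p = 0.0418), and in mutants its value of -0.89 was not called (edgeR adjusted p = 0.122). Of the factors best known from xenobiotic responses, *nhr-8*, *nhr-86* and *nhr-176* had no call in any comparison and *ahr-1* was under the filter.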

How the data were processed

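RNA-seq read counts per gene from 20 libraries of *C. elegans* adults were used as deposited. The authors demultiplexed Cel-seq2 libraries, trimmed reads with trimmomatic 0.32, aligned them with STAR and made counts with ESAT, leaving out pseudogenes. The STAR version, the genome build, the use of strand and the treatment of molecular identifiers are not given in the sources used here. Of 22736 identifiers 22497 were matched to a symbol, and positions are those of WBcel235.

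Counts were fitted in edgeR 4.0.16 (R 4.3.3) with TMM, filterByExpr by group (11270 genes), glmQLFit and glmQLFTest, with group and series of library names as terms on all 20 libraries. Replicates 1 and 2 against 5, 6 and 7 split as the study's sequencers do, but no label names a sequencer. Adjusted p-values are Benjamini-Hochberg over all genes tested. Alternatives were RLE factors, library totals, no filter, DESeq2 1.42.0, no series term, a replicate block in place of it, only the compared libraries, no fold minimum, each series alone, and leaving out each library. Leaving out 2 libraries together was added after the data were seen. Same-numbered libraries deviated together from their group means (r = 0.197 to 0.730 in all comparisons), so numbers were taken to pair them. With the series removed, r was -0.218 to 0.669.

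The members and lists were chosen with earlier results of these data known. Genes are named where called, where among the 10 highest or the highest tested of a subfamily, or where called with DESeq2 or the block at an unadjusted p under 0.05. In counts simulated for the unsupplemented strains over 10986 tested genes, 51.6% of genes changed 2-fold and 91.7% of those changed 4-fold were called, and 3.50% of the calls were on unchanged genes. These counts held no shift between the series of library names, and the changed genes were drawn from genes of all levels. The rates therefore do not describe *cyp* genes with few counts. Intervals and floors cover counting error only.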

Additional observations from a re-analysis of the deposited data

Results flagged for a closer look

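Dixon's test at its 95% critical value of 0.71 flags about 1 in 20 groups of normally distributed values. This rate was not checked for CPM of low counts. Of 96 groups of 5 libraries (the 23 named *cyp* genes and the summed *cyp* level, in 4 groups), 12 held a library whose gap to the nearest other exceeded that critical value. In supplemented mutants these were *cyp-14A5* in replicate 1 (48.1 CPM, next 23.1 CPM), *cyp-37B1* in replicate 1 (21.9 CPM, next 4.17 CPM), *cyp-31A2* in replicate 2 (56.6 CPM, next 40.2 CPM) and *cyp-25A1* in replicate 7 (4.58 CPM, next 2.13 CPM). In unsupplemented mutants *cyp-43A1* was low in replicate 6 (3.46 CPM, next 4.98 CPM). In supplemented WT replicate 7 stood apart for *cyp-25A1* (10.7 CPM, next 3.21 CPM) and for its neighbour *cyp-25A2* (8.17 CPM, next 4.93 CPM). In unsupplemented WT replicate 7 was high for *cyp-25A1* (2.37 CPM, next 1.07 CPM) and *cyp-13B2* (1.5 CPM, next 0.967 CPM), replicate 1 for *cyp-42A1* (2.58 CPM, next 0.611 CPM) and replicate 5 for *cyp-35B1* (0.286 CPM, next 0.0791 CPM). *cyp-37A1* was low there in replicate 6 (0.153 CPM, next 0.668 CPM). Replicate 7 was thus the high library for *cyp-25A1* in 3 of the 4 groups, which bears on the vitamin B12 call of that gene in WT.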

How the results depend on the processing

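Of the recomputed fold changes of single genes named as called or near a call, 367 kept their direction and side of the threshold, 34 gained a call, 42 lost one, and none reversed. Settings that left a gene under the filter are not among these. Most of these fits left out 1 library, which could lie outside the comparison, so they share nearly all their data. The number of *cyp* genes called between the unsupplemented strains was 3 in the model of the report, 7 without the low-count filter, 0 within replicates 1 and 2, 2 within replicates 5, 6 and 7 (*cyp-35D1* and *cyp-29A3*), 5 without replicate 1 of supplemented mutants and replicate 7 of supplemented WT together, and 3 to 5 when 1 library was left out. Between the supplemented strains it was 0, 1 without the filter (*cyp-13A5*), and 0 with any library left out. With vitamin B12 in mutants it was 3, 5 without the filter, 5 with DESeq2, 0 without the series term, 6 with the replicate block, 0 within replicates 1 and 2, 2 within replicates 5, 6 and 7 (*cyp-35C1* and *cyp-29A3*), and 1 to 5 when 1 library was left out. In WT it was 3, 7 without the filter, 5 with DESeq2, 5 with the replicate block, 1 with only the compared libraries (*cyp-35B1* was then under the filter), 0 within replicates 1 and 2, 1 within replicates 5, 6 and 7, and 1 to 4 when 1 library was left out. For the interaction it was 0, and 1 without the filter (*cyp-37B1*, -2.98, edgeR adjusted p = 0.0375).

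Calls over all genes moved with the same settings. With vitamin B12 in mutants they numbered 210 of 11270 tested in the model of the report, 413 of 21639 without the filter and 306 of 21635 with DESeq2. They numbered 85 of 11270 without the series term, 372 of 11270 with the block and 8 of 10295 within replicates 1 and 2. Between the unsupplemented strains 2.81% of all genes were called in the model of the report, 2.88% without the filter and 0.214% within replicates 1 and 2. Within replicates 5, 6 and 7 the share was 0.931%. In WT vitamin B12 gave 1.45%, 1.58% without the filter, 1.11% with DESeq2 and 2.40% with the block. Its share was 1.12% with only the compared libraries, 0.117% within replicates 1 and 2 and 0.707% within replicates 5, 6 and 7. The cause of these shifts was not tested. Replicates 1 and 2 alone give 2 libraries a group. The counts without 1 library reached 5 between the unsupplemented strains without replicate 2 of those mutants or replicate 7 of supplemented WT. For vitamin B12 they reached 5 in mutants without replicate 1 of unsupplemented or replicate 2 of supplemented mutants, and 1 without replicate 6 of the supplemented mutants. In WT they reached 1 without replicate 1 of unsupplemented WT. *cyp-37B1* between the unsupplemented strains was called in 6 of 20 such fits. The replicate block changed no other call than those given in the report. Depth limits the low genes, since *cyp-35D1* had fewer than 3 counts in 2 unsupplemented mutant libraries.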
